A study of Mus musculus with 7 samples.

Results

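A set of 10 genes that mark fibro-adipogenic progenitors (Pdgfra, Pi16, Dpt, Mfap5, Clec3b, Ly6a, Smoc2, Gsn, Dcn and Lum) was followed through 7 mouse tibialis anterior muscles, the muscle at the front of the lower leg, each cut into serial cryosections whose polyA RNA was sequenced one section at a time. They were picked by name, though with earlier results of these data known, and all 10 were present among the 53083 genes counted in every muscle. The muscles fell into 3 groups: DMD (3 muscles), the group that the series title ties to Duchenne muscular dystrophy, Ctr (2 muscles) and WT (2 muscles). Column names carried mdx for DMD, hDMD for Ctr and pax7 for WT, which the labels leave unexplained. Strain, sex, age, treatment and whether the muscles came from separate animals are not given in the sources used here, so the p-values below rest on the variation among these samples alone, which may be technical.

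Fibro-adipogenic progenitors are mesenchymal stromal cells that lie between muscle fibres and in the connective tissue around fibre bundles. They are recognised by the receptor PDGFRA, respond to platelet-derived growth factor, lay down much of the extracellular matrix of muscle, and help regenerating fibres after injury. In chronically damaged muscle the same population is a source of fibrosis and fat. Other cells use some of the 10 genes too: gelsolin (Gsn) is an actin-severing protein of many cell types, and Ly6a (Sca-1) also marks endothelial and blood-forming cells.

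Library depth differed between muscles. The 422 of 525 sections kept held 41407203, 11181994 and 23341091 counts in DMD-1 to DMD-3, 15575632 and 12224463 counts in Ctr-1 and Ctr-2, and 23116888 and 18268732 counts in WT-1 and WT-2. Mitochondrially encoded genes took 25.69 to 34.28% of the counts in DMD, 29.43 to 30.41% in Ctr and 41.6 to 45.94% in WT. The WT tables had also been counted with another gene annotation, so for WT the group and the counting cannot be told apart. Dmd, the dystrophin gene, had 223.6 to 543.4 counts per muscle in DMD, 156.4 and 192.4 in Ctr, and 165.9 and 310 in WT. Counts assigned to human DMD sequence were present in DMD (257 to 812.2) as in Ctr (304.4 and 306.4), so neither check told the 2 groups apart. The WT tables had no human DMD row, and they alone had an EGFP row, with 36 and 15 counts in WT-1 and WT-2. Muscle fibre markers (Acta1, Ckm, Myh1, Myh4, Tnnt3, Pvalb) summed to 55040 to 101500 CPM (counts scaled to a common library total) with none at 0, as the tissue label says.

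Positions are on GRCm38. Pdgfra (chr5:75152292-75198215, plus strand) encodes the receptor that defines the cells. Pi16 (chr17:29317680-29330593) encodes peptidase inhibitor 16 and marks, with Dpp4, a fibroblast population shared by many organs. Dpt (chr1:164796644-164824266) encodes dermatopontin, a matrix protein that binds decorin. Mfap5 (chr6:122505845-122529290) encodes a microfibril protein of elastic fibres, and Clec3b (chr9:123150946-123157432) the plasminogen-binding protein tetranectin. Smoc2 (chr17:14279506-14404790) encodes a secreted calcium-binding matricellular protein. Dcn (chr10:97479609-97518143) and Lum (chr10:97565128-97572703) encode decorin and lumican, small leucine-rich proteoglycans that bind collagen fibrils, and 46985 bases separate the end of Dcn from the start of Lum. Gsn lies at chr2:35256380-35307892 and Ly6a, on the minus strand, at chr15:74994877-74998031. For Ly6a, 51.05% of the nonzero section values were not whole numbers, against 22.78% over all genes and 0.483 to 3.5% for the other members. Part of its count therefore came from reads shared with other places in the genome, and its values are uncertain.

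Upstream sequence is shown for the receptor gene that defines the cells and for Dpt, a matrix gene whose level was higher in DMD than in Ctr. Each is the plus-strand stretch of 200 bases that ends 50 bases before the RefSeq start (GRCm38.p6), Dpt at chr1:164796413-164796612 and Pdgfra at chr5:75152001-75152200. Capitals mark the E-box CANNTG, which reads the same on both strands and is bound by basic helix-loop-helix factors.
Dpt: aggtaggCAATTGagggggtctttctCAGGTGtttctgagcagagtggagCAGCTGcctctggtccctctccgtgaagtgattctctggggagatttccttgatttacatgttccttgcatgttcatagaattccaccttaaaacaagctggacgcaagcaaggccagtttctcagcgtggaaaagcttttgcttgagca
Pdgfra: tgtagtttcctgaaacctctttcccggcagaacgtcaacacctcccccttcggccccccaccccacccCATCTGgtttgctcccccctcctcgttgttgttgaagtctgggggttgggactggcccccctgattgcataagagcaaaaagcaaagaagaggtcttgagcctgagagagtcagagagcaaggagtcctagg
The Dpt stretch held 3 E-boxes and the Pdgfra stretch 1, while 59.0% of the 32851 mouse promoters in the same table held at least 1 in such a stretch. TATAAA and CCAAT, searched on both strands, were in neither, and in 9.1 and 28.4% of all promoters. GC content was 48.5% for Dpt and 56.5% for Pdgfra, against 52.4% over all. Entries were found for 4 of the 10 members. The stretch of Gsn, searched in the same way but not printed here, held 0 E-boxes.

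Per kilobase of exon, the members covered a wide range of levels. Gsn averaged 171.5 ± 65.25 CPM per kb and Ly6a 160.8 ± 68.17 (SD, n = 7 muscles), followed by Dcn at 50.7 ± 29.95. The other matrix genes came next, with Dpt at 20.3 ± 15.6, Lum at 9.54 ± 8.51, Mfap5 at 8.62 ± 7.91, Clec3b at 6.50 ± 3.88 and Smoc2 at 4.28 ± 2.32 CPM per kb. Pi16 averaged 4.07 ± 3.90 and Pdgfra, the defining receptor, was lowest at 0.502 ± 0.297. Ly6a and Dcn, and Dcn and Dpt, differed by more than either SD, and every other pair of neighbours in this order by less than the larger of its SDs. This order depends on the division by exon length. In CPM alone, Dcn and Ly6a had group means of 417.9 and 242.1 in DMD, 227.6 and 167.7 in Ctr, and 181.2 and 147.1 in WT. Whether counts in these libraries grow with exon length was not tested. Pdgfra was found in 71.67 to 98.46% of the kept sections in DMD, 47.27 and 59.02% in Ctr and 43.75 and 60% in WT, and these shares move with depth. Gsn, Dcn and Ly6a were found in every kept section.

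The comparison of DMD with Ctr asks how the stromal genes differ in the dystrophic muscle. All 10 members had a positive difference, and Lum, Mfap5 and Dpt rose. Levels of the members here are CPM after trimmed mean of M-values (TMM) scaling. Levels of other genes and list sums are CPM scaled to the library total alone. Differences are log2 values from edgeR's quasi-likelihood test with an approximate standard error and Benjamini-Hochberg adjustment over 13746 genes.

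Lum, the lumican gene, had 29.8, 45.7 and 19.1 scaled CPM in DMD-1, DMD-2 and DMD-3, against 3.58 and 6.47 in Ctr-1 and Ctr-2. All 3 DMD muscles lay above both Ctr muscles, and the Ctr values rested on 58 and 76 counts. The difference was 2.66 ± 0.44, or 6.33-fold (adjusted p = 0.0105).

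Mfap5, the microfibril gene, had 34.6, 66.0 and 24.4 scaled CPM in DMD, against 13.5 and 16.0 in Ctr. The groups did not overlap, with DMD-2 far above the other muscles. The difference was 1.5 ± 0.39 (adjusted p = 0.0366). Dpt had 38.2, 65.5 and 32.9 scaled CPM in DMD, against 13.9 and 21.4 in Ctr, again with no overlap. Its difference was 1.37 ± 0.33 (adjusted p = 0.0308).

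Smoc2 and Pdgfra missed the threshold although their groups did not overlap. Smoc2 had 31.6, 43.6 and 29.6 scaled CPM in DMD, against 11.5 and 22.8 in Ctr (difference 1.03 ± 0.30, adjusted p = 0.0510). Pdgfra had 5.82, 7.55 and 4.93 scaled CPM in DMD, against 3.89 and 2.98 in Ctr (difference 0.81 ± 0.26, adjusted p = 0.0689). The Ctr values of Pdgfra rested on 63.17 and 35 counts.

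Gsn, Dcn and Clec3b differed by less. Gsn had 524.3, 668.5 and 573.6 scaled CPM in DMD, against 359.3 and 498.3 in Ctr, the groups just clear of each other (difference 0.46 ± 0.24, adjusted p = 0.230). Dcn had 229.4, 505.1 and 259.4 in DMD, against 197.2 and 260.1 in Ctr, and Clec3b 6.83, 10.03 and 5.36 in DMD, against 2.47 and 6.73 in Ctr. Both overlapped, with differences of 0.53 ± 0.34 for Dcn (adjusted p = 0.309) and 0.70 ± 0.40 for Clec3b (adjusted p = 0.265). As single muscles were left out, these ran from 0.11 to 0.75 for Dcn and from 0.12 (without Ctr-1) to 1.56 (without Ctr-2) for Clec3b.

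Pi16 and Ly6a stood at the other end of the list. Pi16 had 12.1, 56.9 and 21.2 scaled CPM in DMD-1, DMD-2 and DMD-3, against 18.4 and 39.4 in Ctr, so DMD held both the highest and the lowest of these values. Its difference was 0.05 ± 0.55 (95% interval −1.49 to 1.58, adjusted p = 0.965). Ly6a had 205.7, 237.9 and 120.6 in DMD, against 199.2 and 133.3 in Ctr (difference 0.18 ± 0.30, interval −0.67 to 1.02, adjusted p = 0.732). Both intervals span 0.

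**Figure D1:**
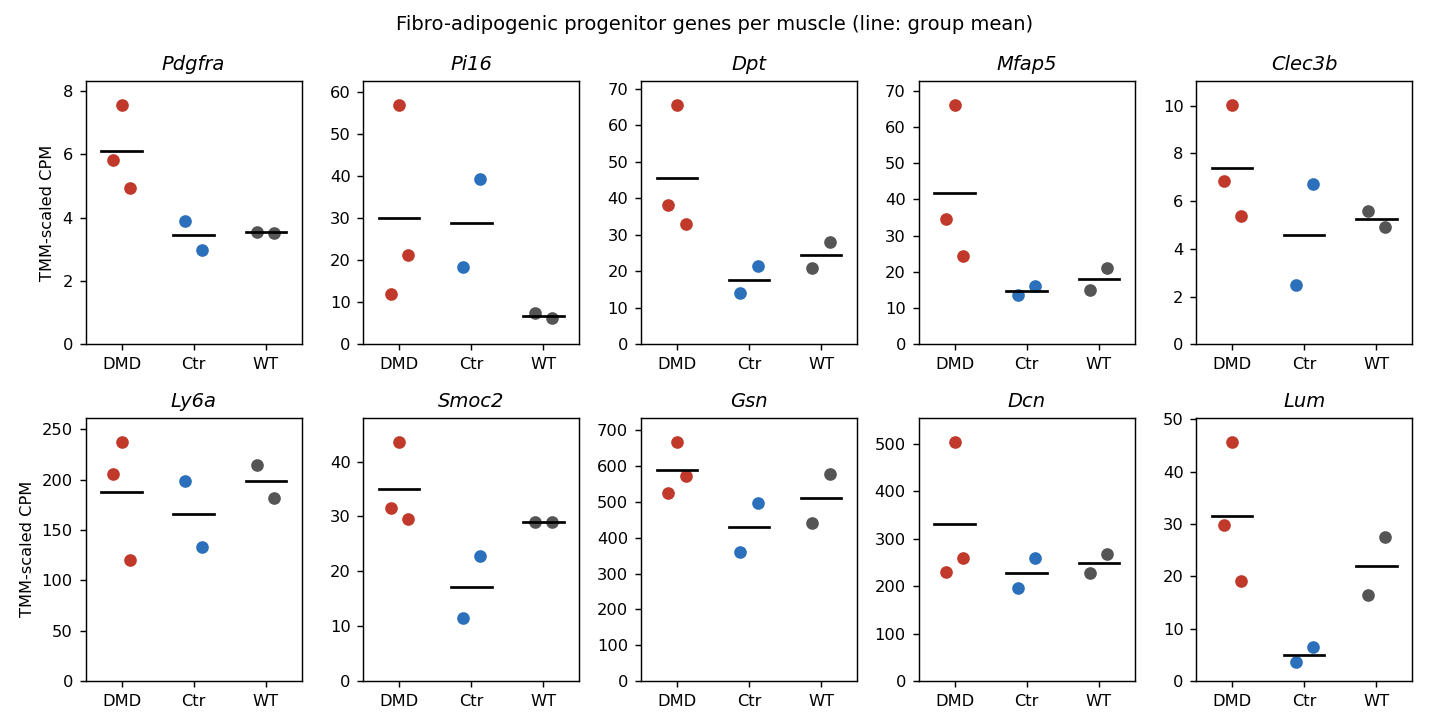
Level of each of the 10 genes in every muscle, in TMM-scaled CPM (vertical axes, each from 0), with DMD, Ctr and WT muscles from left to right and a line at the group mean. DMD-2 is the highest muscle in all 10 panels, and in Lum all 3 DMD muscles (19.1 to 45.7) stand above both Ctr muscles (3.58 and 6.47).

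Thus 3 of the 10 members were called higher in DMD than in Ctr and 0 lower, where 12.7% of all tested genes were called, 7.17% being higher and 5.49% lower. Of the members, 6 had every DMD muscle above every Ctr muscle and 0 every one below, where 23.8% of all genes lay wholly above and 22.2% wholly below. The median difference of the members was 0.76, and that of all tested genes 0.022. In a bulk section, more cells of a type and more RNA per cell cannot be told apart.

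Call counts moved when single muscles were left out, over all genes as well as among the members. With all muscles 1740 genes were called, and 583 without DMD-1, 770 without DMD-2 and 3425 without DMD-3. The difference stayed at 2.27 to 3.12 for Lum, 1.034 to 1.69 for Dpt and 1.025 to 1.76 for Mfap5. Without Ctr-1, none of the 10 members was called, and Lum had a difference of 2.27 (adjusted p = 0.121). Without DMD-1, DMD-2, WT-1 or WT-2, 1 member was called in each case, and it was Lum; the WT muscles enter through the shared estimate of spread. Dpt then had adjusted p-values of 0.0541, 0.0557, 0.0565 and 0.0568, and Mfap5 of 0.0654, 0.0565, 0.0625 and 0.0627. Without Ctr-2, 3 members were called, with Smoc2 among them (adjusted p = 0.0232) and Mfap5 not (0.0987). Without DMD-3, the DMD muscle with the fewest macrophage transcripts, 5 were called, adding Smoc2 (adjusted p = 0.0194) and Pdgfra (0.0258).

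The other fibroblast and PDGF genes were counted in the same comparison. Of 18 further fibroblast and progenitor markers, 7 rose in DMD against Ctr (Fbn1, Adamts5, Cd248, Thy1, Col15a1, Osr1 and Cd55), 0 fell and the median difference was 0.59. Fbn1, which encodes fibrillin-1 of the microfibrils that Mfap5 binds, had 24.25, 23.43 and 7.76 CPM in DMD, against 2.697 and 5.07 in Ctr (difference 1.87 ± 0.42, adjusted p = 0.0253). Adamts5, a proteoglycan-cleaving protease, differed by 1.73 ± 0.36 (adjusted p = 0.0202), and Cd248, the stromal receptor endosialin, by 1.63 ± 0.46 (adjusted p = 0.0470). Of 6 genes of PDGF ligands and receptors other than Pdgfra, 0 passed the test. Pdgfb, the most abundant of them, had 27.53, 31.66 and 28.96 CPM in DMD, against 20.74 and 23.32 in Ctr, without TMM scaling. With that scaling its difference was 0.13 ± 0.26 (adjusted p = 0.767).

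Of 12 genes of activated, matrix-producing fibroblasts, 10 rose in DMD against Ctr and 0 fell, with a median difference of 3.35. Cthrc1, a secreted protein of activated fibroblasts, had 9.13, 4.74 and 1.20 CPM in DMD, against 0.0642 and 0 in Ctr (adjusted p = 0.0113). Timp1, an inhibitor of matrix metalloproteases, had 17.6, 17.9 and 7.16 CPM in DMD, against 0.449 and 0 in Ctr (adjusted p = 0.00394), and Tnc, which encodes tenascin-C, had 3.67, 3.49 and 0.686, against 0.0642 and 0.0818 (adjusted p = 0.0145). No fold is given for these 3, since their Ctr values rested on few counts. Whether the activated list differed from the progenitor list was not tested.

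Markers of other cell types moved with the same groups. Of 14 macrophage genes, 11 rose in DMD, and together they summed to 1695, 1416 and 233.7 CPM in DMD-1 to DMD-3, against 80.7 and 114.8 in Ctr and 69.6 in each WT muscle, with none of the 14 at 0 in any muscle. Gpnmb differed by 5.37 ± 1.08 (adjusted p = 0.0177), Lgals3 by 5.22 ± 0.92 (adjusted p = 0.0128) and Ctss by 4.84 ± 0.80 (adjusted p = 0.0107). In DMD-1 to DMD-3 Gpnmb had 123.8, 54.2 and 5.48 CPM, against 1.54 and 0.573 in Ctr. The size of its difference thus rests on few Ctr counts and varied among the DMD muscles. Of 7 tendon genes tested, 5 rose, among them Comp (3.95 ± 0.43, adjusted p = 0.00317), Tnmd (3.60 ± 0.69, adjusted p = 0.0158) and Cilp2 (1.90 ± 0.49, adjusted p = 0.0359). In Ctr-1 and Ctr-2, Comp had 0.193 and 0.245 CPM, Tnmd 0.0642 and 0.818, and Cilp2 0.257 and 0.818. The sizes of these differences thus rest on few Ctr counts. The tendon list summed to 27.85 to 46.62 CPM in DMD, 6.17 and 12.7 in Ctr, and 29.49 and 34.32 in WT, with 1 gene at 0 in Ctr-2. On these CPM, which were not TMM-scaled, WT lay within the range of DMD. In the test, which uses TMM scaling, the median tendon difference for DMD against WT was −0.56. The part of macrophage and tendon content in the members' differences was not tested.

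Vascular, nerve, fat and fibre markers gave smaller numbers. None of 8 endothelial genes passed the test (Kdr, a VEGF receptor, −0.08 ± 0.31, adjusted p = 0.898), nor any of 6 adipocyte genes (Fabp4 −0.29 ± 0.23, adjusted p = 0.414) or 6 fibre genes (Pvalb −0.52 ± 0.32, adjusted p = 0.305). Of 7 mural genes 2 fell, the smooth muscle genes Tagln (−1.92 ± 0.29, adjusted p = 0.00811) and Myh11 (−0.83 ± 0.21, adjusted p = 0.0330). Of 7 Schwann cell genes 2 fell. Endothelial genes summed to 254.1 to 508.6 CPM in DMD and 344 and 362.8 in Ctr, and Schwann genes to 32.59 to 50.87 in DMD and 49.62 and 59.68 in Ctr.

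Of the 10 members, Pi16 alone was called higher in DMD than in WT, where 8.25% of all genes were. It had 12.1, 56.9 and 21.2 scaled CPM in DMD, against 7.38 and 6.14 in WT, from 136.9 and 74.58 WT counts. Every DMD muscle lay above both WT muscles, although DMD-1 did so by little. Both Ctr muscles lay above the WT muscles too, at 18.4 and 39.4, and DMD differed from Ctr by 0.05. The WT tables were also those counted with another annotation. The difference of DMD against WT was 2.13 ± 0.61, or 4.39-fold (adjusted p = 0.0445). It was not called without WT-1 (2.27, adjusted p = 0.207), WT-2 (2.00, adjusted p = 0.254) or DMD-2 (1.3, adjusted p = 0.0728).

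The matrix genes did not pass the test against WT. Lum had 29.8, 45.7 and 19.1 scaled CPM in DMD, against 16.4 and 27.5 in WT, and overlapped (0.52 ± 0.38, adjusted p = 0.374). Smoc2 had 31.6, 43.6 and 29.6 in DMD, against 28.9 and 29.0 in WT, with the lowest DMD muscle just above them (0.27 ± 0.29, adjusted p = 0.557). The DMD muscles also lay above both WT muscles for Mfap5, which had 15.0 and 21.1 in WT (1.21 ± 0.38, adjusted p = 0.0599), for Dpt, with 21.0 and 28.1 (0.89 ± 0.33, adjusted p = 0.0899), and for Pdgfra, with 3.55 and 3.52 (0.78 ± 0.26, adjusted p = 0.0710).

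Gsn, Dcn, Clec3b and Ly6a overlapped between DMD and WT. Gsn had 442.5 and 577.8 scaled CPM in WT, Dcn 227.7 and 268.5, Clec3b 5.601 and 4.91, and Ly6a 214.9 and 182. The difference was 0.21 ± 0.24 for Gsn, 0.42 ± 0.34 for Dcn, 0.48 ± 0.39 for Clec3b and −0.08 ± 0.30 for Ly6a (adjusted p = 0.587, 0.421, 0.430 and 0.883). In all, 1 of 10 members was called higher in DMD than in WT and 0 lower, where 15.2% of all genes were called, 8.25% higher and 6.92% lower. Of the members, 5 had every DMD muscle above both WT muscles and 0 below, where 26.7% and 24.2% of all genes did, and 9 had a positive difference, with a median of 0.50 against 0.070 over all genes. On CPM that were not scaled beyond the library total, 9 members were called higher. Over all genes 5148 were then called, against 2085 with TMM scaling, and the median of all genes moved by 0.754. The count thus depends on the scaling. Both comparisons share the DMD muscles. Beside these values, 12 of 14 macrophage genes and 8 of 12 activated fibroblast genes were higher in DMD than in WT, 3 of 7 mural genes were lower, and of 7 tendon genes 1 was higher and 1 lower, with a median of −0.56. Their part in the members' differences was not tested.

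**Figure D2:**
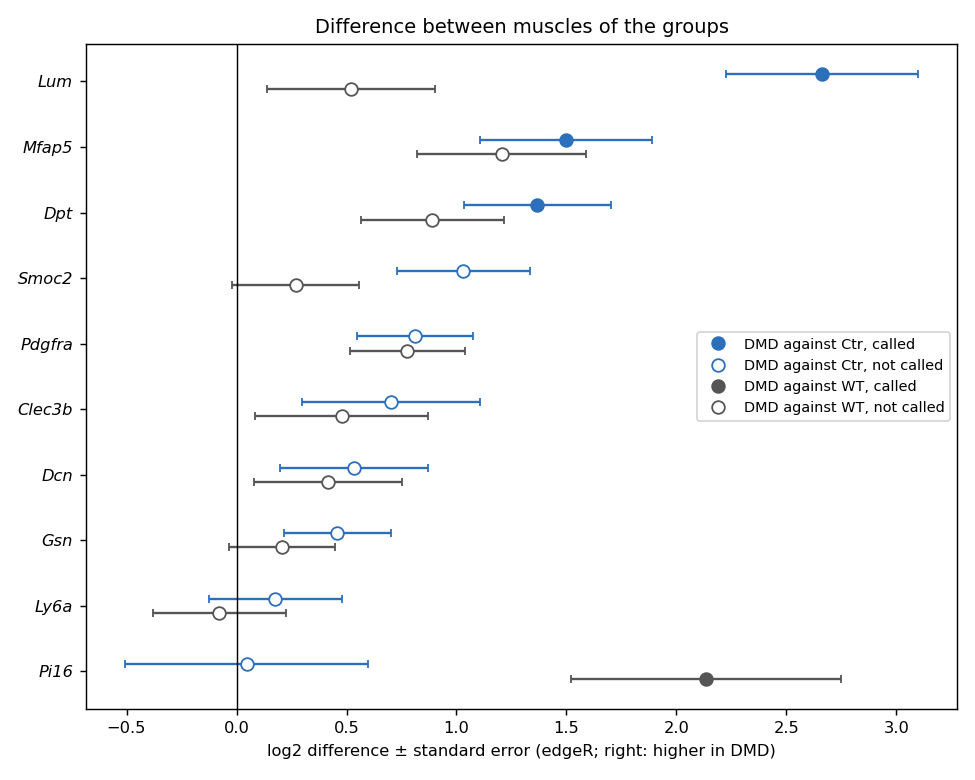
Log2 difference (horizontal axis) of each of the 10 genes for DMD against Ctr and for DMD against WT, with bars of 1 approximate standard error; filled points were called at an adjusted p below 0.05. Lum, Mfap5 and Dpt are filled for Ctr, and Pi16, at 2.13 against WT and 0.05 against Ctr, is the filled point for WT.

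WT was also set against Ctr, the 2 groups without the DMD label. No member passed edgeR's test, where 0.364% of all genes did, 0.167% higher and 0.196% lower (50 genes, with 2481 at an unadjusted p below 0.05), and DESeq2 called 1 member. Lum had 16.4 and 27.5 scaled CPM in WT, against 3.58 and 6.47 in Ctr, with no overlap (difference 2.14 ± 0.45, adjusted p = 0.0733). Smoc2 was also higher in both WT muscles than in both Ctr muscles, with a difference of 0.76 ± 0.32 (adjusted p = 0.254). Pi16 had 7.38 and 6.14 scaled CPM in WT, against 18.4 and 39.4 in Ctr, and went the other way (difference −2.09 ± 0.65, adjusted p = 0.149). Of the 10 members, 2 lay wholly above in WT and 1 wholly below, where 27.2% and 27.8% of all genes did. All 7 tendon genes tested had a positive difference for WT against Ctr, 2 of them were called higher in WT, and the median was 2.77, against −0.01 over all genes. No gene of the macrophage and activated fibroblast lists was called. The part of tendon content in the difference of Lum was not tested.

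DMD-2, the shallowest library, had the highest scaled level of all 7 muscles for each of the 10 members. Without it, 8 of the 10 members had a positive difference against Ctr and the median was 0.56. For Pi16 the difference against Ctr lay between −0.79 and 0.67 as single muscles were left out. Relative to its mean, the spread among DMD muscles was widest for Pi16 (30.1 ± 23.7 scaled CPM, SD, n = 3), against 28.9 ± 14.8 in Ctr and 6.76 ± 0.87 in WT (SD, n = 2 each).

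Next, the members were followed along each muscle. The sections of a muscle, in the order of their barcode numbers, were divided into 5 equal bins. The labels do not say that barcode order is section order or which end was cut first. Sections with adjacent barcodes were more alike (mean correlation of 0.0398 to 0.244 in the 7 muscles) than sections farther apart (−0.0273 to 0.0225). Since the bins followed barcode number in every muscle, place along the muscle and barcode number cannot be told apart, and this likeness does not separate them. Levels in this and the following paragraphs are CPM without TMM scaling, and each comparison was made within muscles and averaged over the 3 groups with equal weight.

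Pi16 was lower at the ends than in the middle, and most of all in the last bin. In DMD-1 it had 12.4, 17.5, 23.1, 19.0 and 9.18 CPM from the first bin to the last, in DMD-2 73.8, 104.6, 77.4, 65.0 and 54.9, and in DMD-3 12.4, 26.5, 23.7, 23.6 and 11.1. In Ctr-1 it had 20.9, 28.5, 15.4, 20.1 and 8.17 CPM, and in Ctr-2 47.6, 53.5, 35.5, 40.8 and 19.8. In WT-1 it had 5.25, 7.25, 6.23, 6.41 and 1.35 CPM, and in WT-2 3.63, 5.50, 4.31, 3.17 and 1.24. The last bin was the lowest in 7 of 7 muscles, and the second bin was the highest in every muscle but DMD-1. In both Ctr muscles the first bin lay above the third, so the low ends there were those of the last bin.

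For Pi16, end sections held 0.480 to 0.786 of the middle level in DMD, 0.667 and 0.703 in Ctr, and 0.546 and 0.599 in WT, below 1 in 7 of 7 muscles. The difference of ends against middle was −0.69 ± 0.11 (adjusted p = 0.000766). It was −0.69 without WT-1 but no longer called (adjusted p = 0.0849), and −0.32 when the sections were divided into 3 bins (adjusted p = 0.31). The difference between DMD and Ctr in this position effect was −0.21 ± 0.18 (adjusted p = 1).

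Smoc2 was the other member called at the ends. Its end sections held 0.805, 0.866 and 0.836 of the middle level in DMD, 0.771 and 0.801 in Ctr, and 0.567 and 0.995 in WT, so all 7 muscles lay below 1, as they did on TMM-scaled levels (0.587 to 0.951), and the WT muscles spread most. The difference was −0.35 ± 0.08 (adjusted p = 0.04996, just under the threshold). It was −0.23 without WT-1 (adjusted p = 0.707), and was not called without Ctr-1 (adjusted p = 0.258), Ctr-2 (0.397), DMD-1 (0.106) or DMD-3 (0.0591) either. With 3 bins it was −0.20 (adjusted p = 0.658). Lum lay below 1 in 7 of 7 muscles as well, at 0.617 to 0.942 (−0.37 ± 0.10, adjusted p = 0.152). With 3 bins Lum was the member called (−0.47, adjusted p = 0.0178), and neither Pi16 nor Smoc2 was.

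In all, 2 of 10 members were called between ends and middle, both lower, where 0.506% of all genes were called and 0.229% lower. Of the 10, 9 had a negative difference, with a median of −0.12, and the median of all genes was −0.004. Gsn, at −0.02 ± 0.05, and Clec3b, at −0.01 ± 0.13, were near 0. No member was called for a difference between DMD and Ctr in this effect, for which edgeR called 0.0245% of all genes and 603 had an unadjusted p below 0.05.

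**Figure D3:**
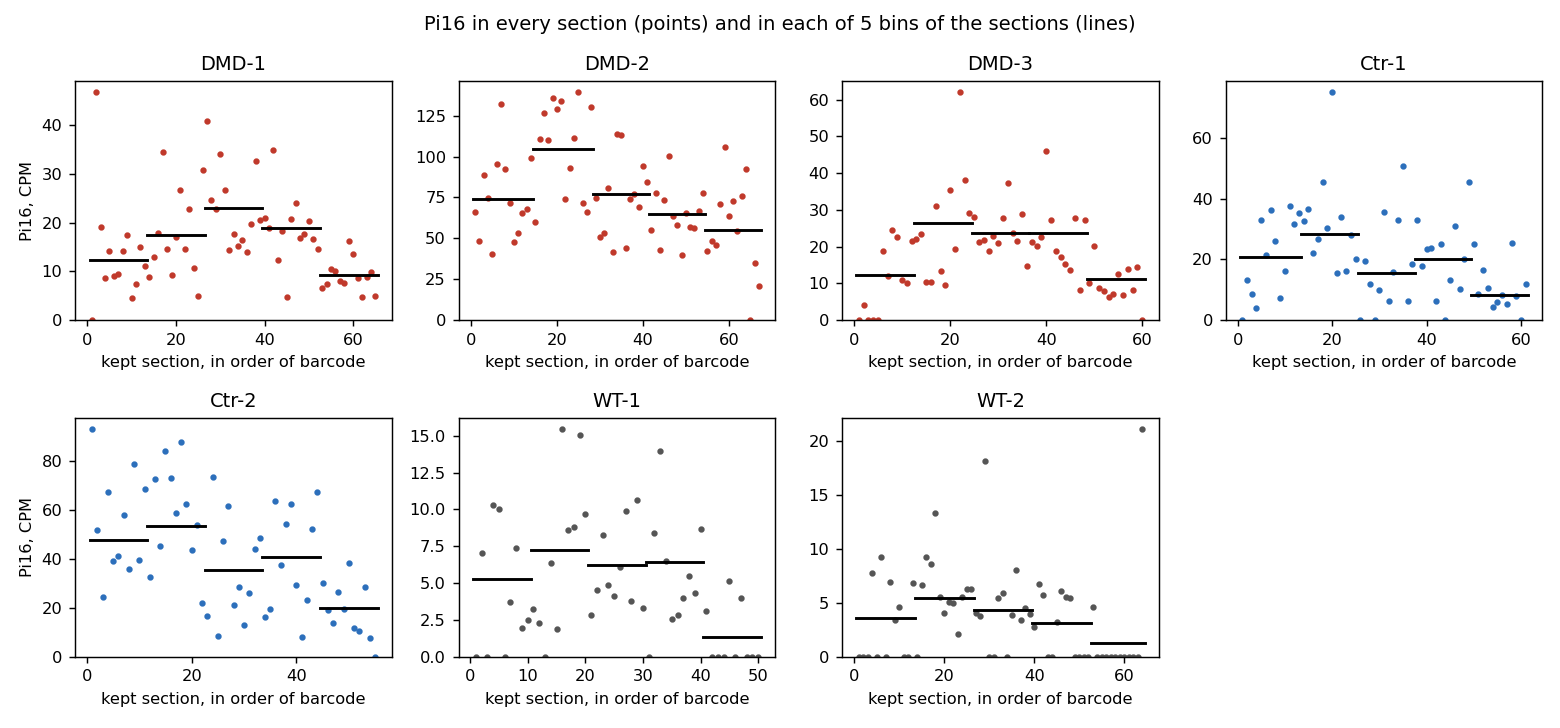
CPM of Pi16 (vertical axes, each from 0) in every kept section of each muscle (points, in order of barcode) and in each bin of the sections (lines). The last bin is the lowest in all 7 muscles, as in WT-1 with 1.35 CPM there and 5.25 to 7.25 in the other bins.

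The ends were not alike. Between the last and the first bin, Pi16 fell by 1.29 ± 0.21 on the log2 scale (adjusted p = 0.00361), with a ratio of 0.257 to 0.893 in CPM and 0.243 to 0.871 on TMM-scaled levels, below 1 in 7 of 7 muscles on both. Without WT-1 the difference was −1.24 (adjusted p = 0.171). Between DMD and Ctr this effect differed by 0.85 ± 0.32 (adjusted p = 0.984), and no gene was called for that difference by edgeR, with 420 genes at an unadjusted p below 0.05.

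Gsn differed in the other direction. In DMD-1 it had 566.9, 606.9, 806.4, 922.9 and 790.4 CPM from the first bin to the last, in DMD-2 682.3, 815.1, 905.9, 1050 and 1033, and in DMD-3 409.9, 468.1, 606.4, 717.5 and 630.2. In Ctr-1 it had 304.4, 319.8, 388.4, 465.2 and 426.7 CPM, and in Ctr-2 419, 441.3, 426.3, 518 and 554.5. In WT-1 it had 279.4, 261.7, 351.8, 411.6 and 549, and in WT-2 294.6, 295.4, 416.4, 487.1 and 517.8. The last 2 bins held the highest value in every muscle, and the last bin had 1.32 to 1.97 times the CPM of the first. On the TMM-scaled levels that the test uses, the ratio was 0.991 in DMD-1 and above 1 in the other 6 muscles, up to 1.86.

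For Gsn the difference of last against first was 0.49 ± 0.11 (adjusted p = 0.0468). It was not called without WT-1 (adjusted p = 0.545), WT-2 (0.279), Ctr-1 (0.461), Ctr-2 (0.448) or DMD-3 (0.0996).

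Another 4 members had more CPM in the last than in the first bin in 7 of 7 muscles without passing the test. The ratio of CPM was 1.21 to 1.83 for Smoc2 (difference 0.40 ± 0.14, adjusted p = 0.31), 1.01 to 2.87 for Pdgfra (0.70 ± 0.27, adjusted p = 0.398), 1.05 to 1.70 for Dcn (0.21 ± 0.12, adjusted p = 0.695) and 1.01 to 2.17 for Lum (0.25 ± 0.21, adjusted p = 0.832). On TMM-scaled levels the ratio was above 1 in 6 muscles for Smoc2, 6 for Pdgfra, 5 for Dcn and 4 for Lum, so the 7 of 7 did not hold under that scaling. In all, 1 member was called higher in the last bin and 1 lower, where 0.889% of all genes were called, 0.259% higher and 0.631% lower. The median of the members was 0.23, against 0.014 over all genes.

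**Figure D4:**
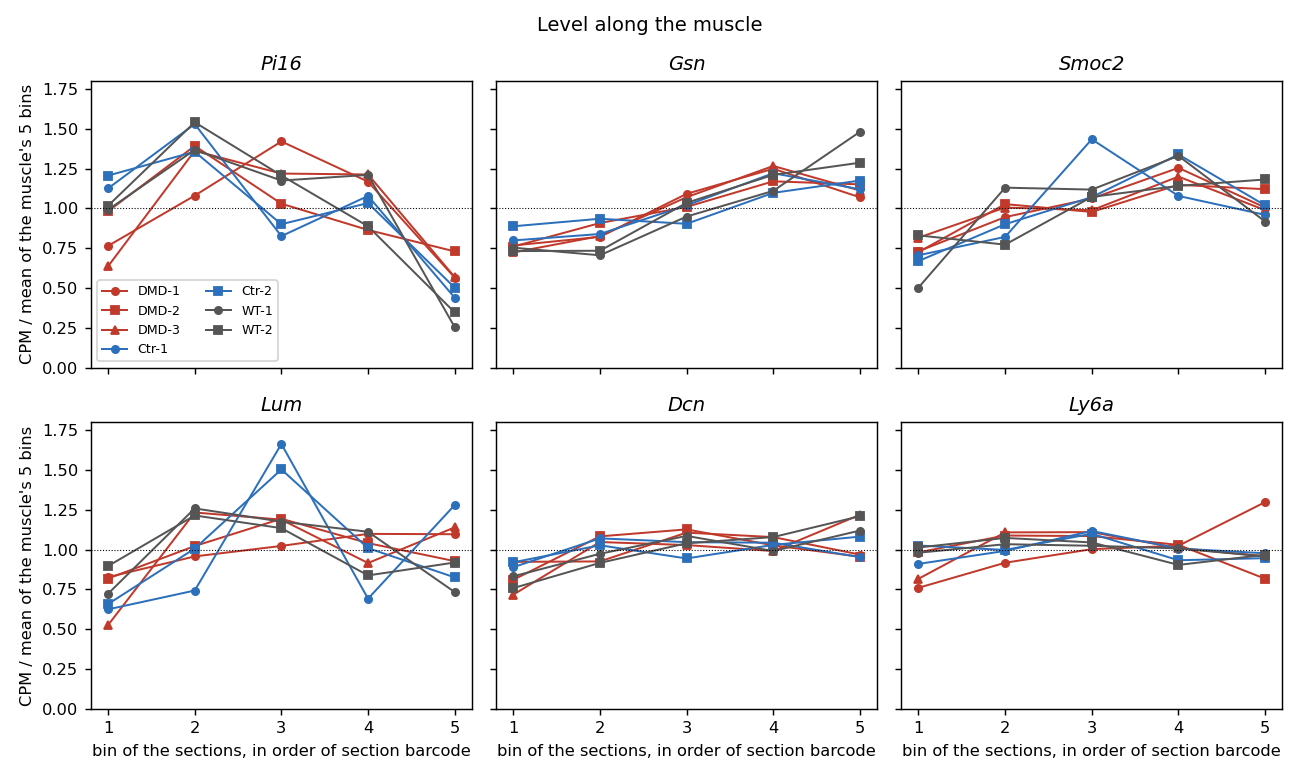
CPM of 6 members in each bin of the sections, divided by the mean of the muscle's 5 bins (vertical axis), with 1 line per muscle coloured by group. Pi16 ends at its lowest point in all 7 muscles, and Gsn ends at 1.32 to 1.97 times its CPM in the first bin, although on TMM-scaled levels the ratio in DMD-1 is 0.991.

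Markers of other structures moved along the same axis. At the ends, 3 of 7 tendon genes were higher and 3 of 6 Schwann cell genes were lower. In the last against the first bin, both Schwann cell genes tested and 3 of 7 mural genes were lower, and 1 of 7 tendon genes was higher. Of the other fibroblast markers, 1 of 18 was called at the ends and 0 of 15 between the ends. The part of nerve, vessel and tendon content in the profiles of Pi16 and Gsn was not tested.

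Section by section, Pi16 ran with the nerve markers and against the tendon markers. As a description over the 50 to 67 sections of a muscle, the rank correlation (rho) of its CPM with the summed Schwann cell genes averaged 0.36 over the 7 muscles (0.261 to 0.467). With endothelial genes it averaged 0.28, and was positive in 7 of 7 muscles. With tendon genes it averaged −0.34 (−0.487 to −0.233). With the other 9 members it averaged −0.04, and was positive in 3 muscles. All these values share library and depth, and low counts lower them.

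Gsn ran with fibre markers at 0.49 (0.152 to 0.670), with activated fibroblast genes at 0.39 and with tendon genes at 0.35, each positive in 7 of 7 muscles. Ly6a ran with macrophage genes at 0.36, at 0.707, 0.522 and 0.650 in DMD-1 to DMD-3, against 0.142 and 0.0400 in Ctr and 0.456 and 0.0126 in WT. Among member pairs the mean ran from −0.07 for Pi16 with Gsn to 0.29 for Gsn with Dcn, so the 10 genes did not follow a single profile.

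How unevenly a gene was spread over sections was measured by an index of dispersion, which is near 1 when section counts scatter only by counting. It was 8.11 to 39.6 for Gsn, 1.47 to 5.46 for Dcn and 1.495 to 9.15 for Ly6a, and 1.02 to 1.59 for Pdgfra. For Pi16 it was 1.63 to 2.82 in DMD, 2.30 and 2.69 in Ctr, and 1.29 and 0.872 in WT, where the counts were low. The index grows with counts, so it does not rank the genes.

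The genes outside the list whose section profile was most like the members together, by mean rho over the 7 muscles among 2740 candidates with at least 20 CPM, were Tpt1 (0.472), Rplp1 (0.451), Amd2 (0.446), Amd1 (0.443), Myoz1 (0.443), Pla2g7 (0.426), Rpl35a-ps6 (0.418) and S100a6 (0.417). Gsn, the most abundant member, carries most weight in that sum. Amd1 and Amd2 are near-identical copies, and their split of reads is uncertain. For single members the nearest gene was Actn3 for Pdgfra (0.218), Actc1 for Pi16 (0.323), Anxa5 for Dpt (0.263), Col3a1 for Mfap5 (0.282) and Tmod1 for Clec3b (0.211). It was Tmsb4x for Ly6a (0.364), Eif4g2 for Smoc2 (0.244), Myh4 for Gsn (0.467), Gm5586 for Dcn (0.354) and Fth1 for Lum (0.256). These are descriptions within libraries, and those of the scarcer members rest on sparse counts.

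Sections were also chosen by tendon genes, none of them a member. The 20% of sections of each muscle with the highest tendon score (10 to 13 sections) were set against the rest, and 8 to 13 of them lay in the first or last bin. This comparison thus overlaps with that of ends and middle.

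Pi16 was lower in the tendon-rich sections. It had 13.4 CPM in tendon-rich and 17.5 in remaining sections of DMD-1, 59.5 and 79.8 in DMD-2, and 11.7 and 22.2 in DMD-3. The values were 15.1 and 20.3 in Ctr-1, 23.5 and 41.6 in Ctr-2, 4.21 and 6.17 in WT-1, and 1.85 and 4.41 in WT-2. The ratio was 0.420 to 0.765, below 1 in 7 of 7 muscles, and the difference was −0.72 ± 0.13 (adjusted p = 0.00151).

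Ly6a was below 1 in 7 of 7 muscles too, at 0.755 to 0.997, and just missed the threshold (−0.22 ± 0.06, adjusted p = 0.0523). Gsn had tendon-rich to remaining ratios of 1.003, 0.937 and 0.893 in DMD, 1.15 and 1.14 in Ctr, and 1.603 and 1.52 in WT. On TMM-scaled levels they were 0.934, 0.885 and 0.929 in DMD, 1.08 and 1.13 in Ctr, and 1.56 and 1.303 in WT, below 1 in all 3 DMD muscles. Its mean difference was 0.18 ± 0.05 (adjusted p = 0.105), and that between DMD and Ctr was −0.27 ± 0.12 (adjusted p = 1, with 0.0402% of all genes called). Lum had ratios of 1.12, 0.822 and 0.999 in DMD, 1.12 and 0.797 in Ctr, and 0.420 and 0.731 in WT (−0.39 ± 0.13, adjusted p = 0.206). In WT alone, Gsn was called higher (0.51 ± 0.10, adjusted p = 0.00494) and Lum lower (−0.94 ± 0.22, adjusted p = 0.0494), where 0.466% of all genes were called, 0.185% higher and 0.281% lower; whether WT differed from the other groups in this was not tested. Averaged over the groups, 1 member was called, lower, where 1.27% of all genes were called, 0.474% higher and 0.795% lower. The median of the members was −0.08, against −0.03 over all genes.

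In DMD, the sections richest in macrophage genes were set against the rest in the same way. None of the 10 members was called by edgeR, where 1.2% of all genes were, 1.15% higher and 0.0479% lower. By edgeR, 1 member had an unadjusted p below 0.05, and DESeq2 called none. The differences ran from −0.15 to 0.27, with a median of 0.04 against 0.02 over all genes. In DMD-1, 12 of the 13 macrophage-rich sections lay in the first or last bin, and 3 of 13 and 4 of 12 did in DMD-2 and DMD-3.

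**Figure D5:**
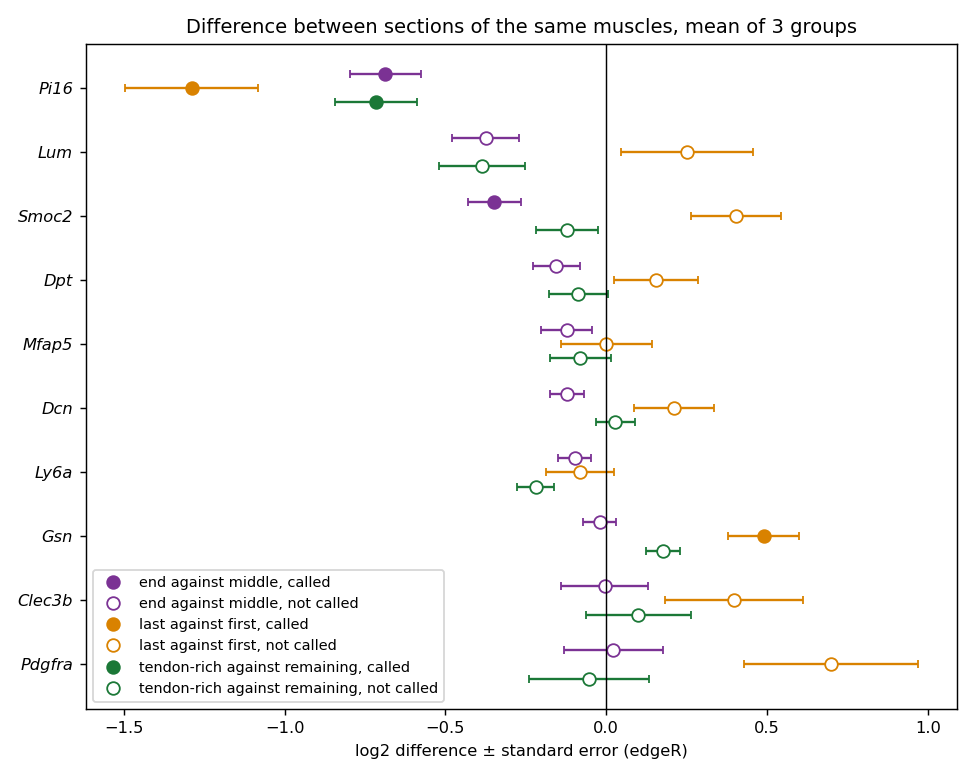
Log2 difference (horizontal axis) of the 10 genes within muscles, for end against middle, last against first and tendon-rich against remaining sections, with bars of 1 approximate standard error; filled points were called at an adjusted p below 0.05. Pi16 is filled and below 0 in all 3 (−0.69, −1.29 and −0.72), Smoc2 is filled for ends against middle, and Gsn is filled above 0 for last against first.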

How the data were processed

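The deposited unit was expected counts per gene and section. Per the file headers, the authors had counted reads with featureCounts 2.0.1 on one strand over exons, dividing reads that fit several places into fractions, and, per the submitters' processing notes, had aligned them with STAR 2.7.7a to GRCm38. Sections with at least 1000 counts and at least 20% of their muscle's median were kept, summed per muscle and rounded. The muscle was the replicate.

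edgeR 4.0.16 (R 4.3.3; filterByExpr, TMM scaling) fitted all 3 groups, with muscle terms in comparisons within muscles, and called genes at an adjusted p below 0.05. Standard errors are approximate (log2 difference over the square root of F). Section scores used log2(CPM + 10). Scripts were tested on simulated data. DESeq2 1.42.0 was an alternative. Intervals cover 95%.

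The members, gene lists and tests were chosen with earlier results of these data known. By rule, the text names all members, up to 3 called genes of each other list (or its most abundant gene) and the genes most alike along the sections; Thy1, Col15a1, Osr1 and Cd55 are named beyond it, while a few named by it are left out here. Deviations of same-numbered muscles from their group means correlated at r of 0.00604 to 0.189. Ctr and WT have 2 muscles each, so a muscle's r with replicate 1 there is the negative of its r with replicate 2. This check therefore cannot tell whether the numbers pair muscles.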

Additional observations from a re-analysis of the deposited data

How the results depend on the processing

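Of 866 values of single members under other settings, 734 kept direction and side of the threshold. Another 43 were newly called, 36 lost the call and 53 changed sign, of which 0 were called under either setting. Why counts moved was not tested. Members called for DMD against Ctr (3) became 1 with only those groups fitted and 0 to 5 with single muscles left out. For DMD against WT (1) they became 3 without a low-count filter, 3 with DESeq2, 9 with no scaling beyond the total (chosen after seeing the data; it moved the median of all genes by 0.313 for DMD against Ctr) and 0 to 4 with a muscle left out. For WT against Ctr (0) they became 2 without a filter, 1 with DESeq2, 2 with only those groups and 0 to 1 with a muscle left out. At the ends (Pi16 and Smoc2) they became 3 without a filter, adding Lum, 1 with RLE scaling, DESeq2 or equal weight of sections (Pi16), 1 with 3 bins (Lum), and 0 to 2 with a muscle left out. For last against first (2) they became 1 with all sections or equal weight, and 0 to 3 with a muscle left out. In tendon-rich sections (1) they became 2 without a filter, 2 with DESeq2, and 1 to 2 with a muscle left out. With the replicate block, by a number whose meaning is not given, they were 5 for DMD against Ctr, 5 for DMD against WT and 2 for WT against Ctr.

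Log2 differences that changed sign were, with equal weight, Pi16 DMD against Ctr −0.11, Pdgfra WT against Ctr −0.18 and at the ends −0.12, Clec3b at the ends 0.0219 and tendon-rich −0.0306, and Gsn at the ends 0.0508. With the replicate block, Ly6a DMD against WT was 0.18. With no scaling, Ly6a DMD against WT was 0.72, and WT against Ctr gave Pdgfra −0.41, Mfap5 −0.17, Clec3b −0.20, Ly6a −0.19, Gsn −0.20 and Dcn −0.33. With no filter, Pdgfra at the ends was −0.0189 and Dcn tendon-rich −0.0298. With DESeq2, Clec3b at the ends was 0.000704 and Mfap5 last against first −0.00649, and with RLE −0.00879. With 3 bins, Pdgfra at the ends was −0.0301, and last against first gave Dpt −0.0895, Mfap5 −0.12 and Lum −0.0147. With all sections, Ly6a last against first was 0.0395 and Pdgfra tendon-rich 0.10. With the top 10% of sections, Pdgfra tendon-rich was 0.20.

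With single muscles left out, ranges that crossed 0 were, for DMD against Ctr, Pi16 −0.79 to 0.67 and Ly6a −0.10 to 0.49; for DMD against WT, Ly6a −0.27 to 0.16 and Dcn −0.00839 to 0.60; for WT against Ctr, Dcn −0.0672 to 0.33, Clec3b −0.35 to 1.09, Pdgfra −0.14 to 0.25 and Ly6a −0.0101 to 0.57. At the ends they were Clec3b −0.11 to 0.10, Pdgfra −0.0697 to 0.12 and Gsn −0.0765 to 0.0231, for last against first Mfap5 −0.10 to 0.10, and in tendon-rich sections Dcn −0.023 to 0.0656.

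All genes called for DMD against Ctr (1740) became 2999 with no filter, 3890 with the replicate block, 683 with only those groups and 56 to 3425 with a muscle left out. For DMD against WT (2085) they became 3208, 4063 with the block, 5148 with no scaling and 68 to 3595. For WT against Ctr (50) they became 860, 460 with DESeq2, 798 with the block, 213 with no scaling, 586 with only those groups and 2 to 513. At the ends (62) they became 131 with no filter, 36 with DESeq2 and 37 with 3 bins, for last against first (86) 150, 50 with all sections, 57 with equal weight, 216 with 3 bins and 22 to 187. In tendon-rich sections (158) they became 357, 104 with DESeq2 and 99 with equal weight, and in macrophage-rich sections (150) 508, 12, 73 and 7 to 489.

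Low counts limit Pdgfra, Clec3b, Lum in Ctr and Pi16 in WT. Having 2 muscles in Ctr and in WT limits every comparison between groups.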

Other observations

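Among the other fibroblast markers, Cxcl14, a chemokine, was lower at the ends than in the middle of the muscles (log2 difference −0.50 ± 0.06, adjusted p = 2.5e-05, edgeR) and lower in tendon-rich than in remaining sections (−0.50 ± 0.08, adjusted p = 0.000552), as Pi16 was. Between the last and the first bin it did not pass the test (−0.08 ± 0.14, adjusted p = 0.96), and neither did it for DMD against Ctr (0.37 ± 0.20, adjusted p = 0.247). Cxcl14 was chosen after its values were seen.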
